A study of Mus musculus with 33 samples.

Results

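The mitochondrial chromosome of the mouse carries 37 genes, and these genes, whose symbols begin with mt-, are described here across 33 RNA sequencing libraries of sorted microglia, the resident macrophages of the brain. They were chosen by chromosome alone, as the 37 genes of chromosome M among the 54146 genes of the count tables. They comprise 22 transfer RNA genes, 2 ribosomal RNA genes and 13 genes for proteins. Over all libraries they held 8683968 counts.

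The mitochondrial genome is a small circle that is transcribed from both strands into long precursors, which are cut into ribosomal RNAs, transfer RNAs and messenger RNAs. Its messenger RNAs encode core subunits of the respiratory chain. The mt-Nd genes encode subunits of complex I (NADH dehydrogenase), mt-Cytb the cytochrome b of complex III, the mt-Co genes subunits of complex IV (cytochrome c oxidase), and mt-Atp6 and mt-Atp8 subunits of complex V (ATP synthase). The other subunits of these complexes, and the proteins that copy, transcribe and process mitochondrial RNA, are encoded in the nucleus. The nuclear genome also holds copies of mitochondrial DNA that were inserted in the course of evolution, so a read from a mitochondrial transcript can have more than 1 place in the genome.

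The libraries fell into 10 groups of C57BL/6 mice. Mice with a germline deletion of Irf8 (IRF8KO), which encodes an interferon regulatory factor of myeloid cells, were compared with wild-type mice (WT) at 3 months of age, with 4 libraries each, and at 9 months, with 3 each. At 9 months 5xFAD mice, a transgenic model of familial Alzheimer's disease whose transgenes are driven in neurons by the Thy1 promoter, were profiled with Irf8 (5xFAD) and without it (5xFAD/IRF8KO), with 3 libraries each. At 3 months Batf3KO mice, which lack a leucine zipper transcription factor, had a WT group of their own, with 3 libraries each. In the conditional experiment, also at 3 months, 3 libraries came from IRF8flox mice (flox here, although their titles read WT) and 4 from IRF8flox mice with Cx3cr1CreERT2 (Cre here), a tamoxifen-inducible Cre in cells that express Cx3cr1, which include macrophages other than microglia. Both of these groups received tamoxifen on 5 days from postnatal day 12, and the study's design text describes sorting YFP-positive cells of this line, without saying how cells of mice without Cre were selected. No treatment was labelled for the other groups. The labels say that cells came from each brain but do not number the animals, so p-values measure the spread between libraries as deposited.

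Counts in genes ran from 605376 to 18357762 per library. In the germline experiments every IRF8KO and 5xFAD/IRF8KO library had less Irf8 than every control of its age. Levels are given in CPM throughout (counts scaled to a common total of gene counts). At 3 months Irf8 was close, at 83.1 to 171 CPM in IRF8KO and 218 to 262 in WT. The WT of the Batf3KO experiment had 968 to 1080 CPM. At 9 months Irf8 was 13.3 to 131 CPM in IRF8KO and 5xFAD/IRF8KO and 566 to 797 in WT and 5xFAD. The library labelled Cre replicate 1 went against its label, with Irf8 at 1217 CPM. Flox had 1018 to 1172 CPM and the other 3 Cre libraries 382 to 457. Batf3 was at most 0.529 CPM in Batf3KO and at least 23.1 CPM in its WT. All labels say female, yet 13 libraries had Y-linked transcripts without Xist and 3 had both, among them all 3 WT and all 3 5xFAD/IRF8KO libraries at 9 months, so no comparison at that age could be made without such libraries. Summed transcripts of 8 microglia markers made up 4.21% to 5.71% of gene counts in WT and 5xFAD at 9 months and in both groups of the Batf3KO experiment, 2.16% to 2.76% in the conditional experiment, 1.10% to 1.78% in WT at 3 months, and 0.248% to 0.847% in the 10 libraries of IRF8KO and 5xFAD/IRF8KO. Those last 10 libraries and the 4 WT libraries at 3 months also held transcripts of other cells. Their 10 neutrophil markers summed to 0.852% to 16.4% and their 7 red blood cell markers to 0.913% to 15.8% of gene counts, against at most 0.0110% and 0.187% elsewhere. Brain cells were among them too. Oligodendrocyte markers summed to 0.322% to 6.32% and astrocyte markers to 0.0608% to 0.826%, against at most 0.0523% and 0.0387% elsewhere. Neuron markers, at 0.0109% to 0.387%, overlapped the conditional experiment, which had up to 0.374%.

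What could be counted differed along the chromosome. The 2 ribosomal RNA genes and 7 of the 13 protein genes had counts in every library. They ran from mt-Cytb with 1886083 counts over the 33 libraries, mt-Co1 with 1736616, mt-Rnr2 (the large ribosomal RNA) with 1710749 and mt-Nd1 with 1649446 down to mt-Nd6 with 74059. By contrast the other 6 protein genes were almost empty. mt-Nd3 had 3189 counts, mt-Co3 121, mt-Atp6 66, mt-Co2 49, mt-Atp8 3 and mt-Nd4l 2.

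These 6 genes lie side by side in a stretch of 4649 bases, from 6394 to 11042 on chromosome M of GRCm38. Copies of mt-Co2, mt-Atp6, mt-Co3, mt-Nd3, mt-Nd4l and parts of mt-Co1 and mt-Nd4 are annotated on the minus strand of chromosome 1 between 24611535 and 24616197. mt-Atp8 and the transfer RNA genes of the stretch have no annotated copy of their own. The 11 mitochondrial genes that lie wholly inside the stretch, the 6 almost empty protein genes and 5 transfer RNA genes, take up 21.6% of the gene bases of chromosome M and held 0.0404% of its counts. The copies are identical over 681 bases for mt-Co2 (copy Gm28661), 678 for mt-Atp6 (Gm10925), 783 for mt-Co3 (Gm28437) and 294 for mt-Nd4l (Gm10222). The deposited tables count only reads with 1 place in the genome. The share of multimapping reads, which they leave out, was 12.2% to 35.4% per library in the 14 libraries with neutrophil and red blood cell transcripts and 3.998% to 6.85% in the other 19.

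The edges of the copied stretch show how exact it is. In mt-Co1 the shared sequence begins in the last part of the gene, and the bases before it differ. In the pair of sequences below (GENCODE M21, GRCm38; mt-Co1 is chrM:6381-6453 on the plus strand and Gm29216 is chr1:24616125-24616197 on the minus strand) the capitals mark the start of the run that both share, which continues for 479 bases to the end of mt-Co1.
mt-Co1: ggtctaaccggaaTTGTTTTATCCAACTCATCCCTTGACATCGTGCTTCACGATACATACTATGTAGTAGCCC
Gm29216: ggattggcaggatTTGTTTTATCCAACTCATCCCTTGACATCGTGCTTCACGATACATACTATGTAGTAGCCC

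The copy of mt-Nd3, Gm28438, differs from it at a single position over the 345 bases of the copy. The first 90 bases of each are shown (mt-Nd3 is chrM:9459-9548, plus strand; Gm28438 is chr1:24613030-24613119, minus strand), with the differing base in capitals. The substitution is T3C, counted from 1 at the first base of mt-Nd3, with mt-Nd3 as the reference.
mt-Nd3: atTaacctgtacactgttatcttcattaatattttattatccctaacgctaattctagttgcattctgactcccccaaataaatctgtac
Gm28438: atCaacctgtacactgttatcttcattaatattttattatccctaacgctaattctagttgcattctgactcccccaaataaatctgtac

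mt-Atp8 is the exception among the 6, since none of its 55-base windows occurs in another annotated transcript. It starts between mt-Co2 and mt-Atp6. From the end of the copied part of mt-Co2, at 7693, to the start of mt-Atp6 there are 233 bases. The copies of those 2 genes on chromosome 1 are also 233 bases apart. Its last 43 bases, in capitals (chrM:7766-7969, plus strand), overlap the start of mt-Atp6 and so also lie in Gm10925, and reads there belong to 2 genes and are not counted for either.
mt-Atp8: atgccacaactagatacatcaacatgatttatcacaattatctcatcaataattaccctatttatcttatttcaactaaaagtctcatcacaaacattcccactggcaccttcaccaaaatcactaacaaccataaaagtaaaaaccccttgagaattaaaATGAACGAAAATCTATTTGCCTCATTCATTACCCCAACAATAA

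For each gene the share of 55-base windows, the read length, that also occur in another annotated transcript was computed. It was 98.0% to 100% in mt-Co2, mt-Co3, mt-Atp6, mt-Nd4l and mt-Nd3, 62.1% in mt-Nd4, 48.7% in mt-Co1, at most 7.62% in mt-Nd2, mt-Nd5 and mt-Rnr2, and 0 in mt-Rnr1, mt-Nd1, mt-Nd6 and mt-Cytb. Reads that lie in shared windows are not counted, so levels of mt-Nd4 and mt-Co1 are understated next to those of the other genes. Complex V cannot be described from the mitochondrial side at all, because mt-Atp6 and mt-Atp8 had too few counts to test in any comparison.

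**Figure D1:**
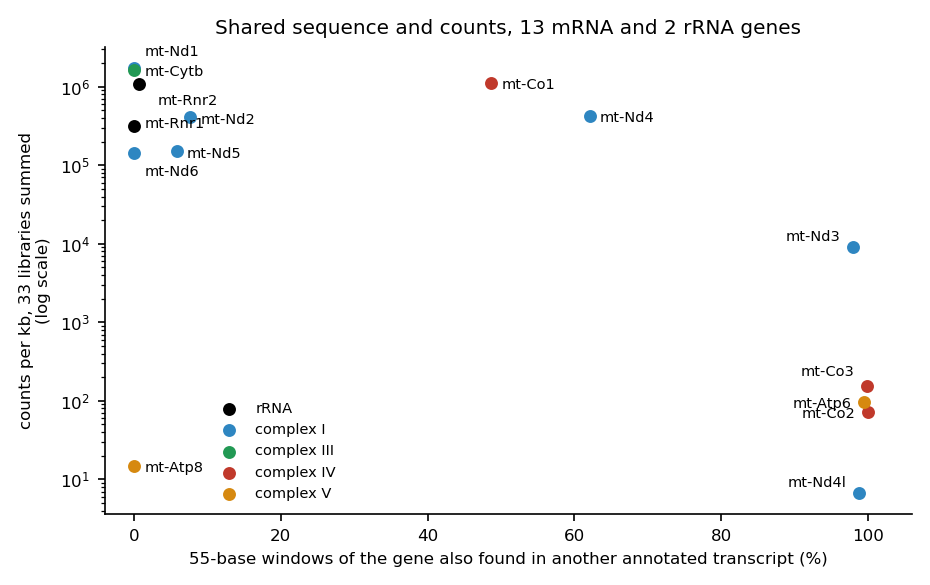
Counts per kilobase over all 33 libraries (log axis) against the percent of a gene's 55-base windows that occur in another annotated transcript, for the 13 protein genes and 2 ribosomal RNA genes of chromosome M, coloured by role. The genes with 98.0% to 100% shared windows lie far below those with 62.1% or less, and mt-Atp8 is low although no annotated transcript shares its windows.

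The transfer RNA genes, none longer than 75 bases, held 0.145% to 0.860% of the mitochondrial counts of a library. mt-Tq (19622 counts over 33 libraries) and mt-Tp (10815) had counts in every library. The 6 genes mt-Tw, mt-Ty, mt-Td, mt-Tk, mt-Tg and mt-Th had none anywhere, and mt-Tn and mt-Ts1 had 2 and 1. Library kits of this type copy polyadenylated RNA and lose very short molecules, so these counts are no measure of mature transfer RNA. Counts of the ribosomal RNAs likewise cover only the part that such kits copy, here and below.

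The mitochondrial genes together took up very different shares of gene counts in different groups. WT microglia at 9 months were low, with 0.228%, 0.295% and 0.213% in replicates 1 to 3. IRF8KO microglia of the same age had 7.64%, 7.02% and 6.63%. 5xFAD libraries had 0.284%, 0.413% and 0.595%, and 5xFAD/IRF8KO libraries 2.92%, 2.62% and 4.75%. At 9 months every library without Irf8 thus lay above every library with it, and the groups with and without Irf8 did not overlap.

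At 3 months the same germline experiment looked different. WT had 4.12%, 9.37%, 7.90% and 12.9%, and IRF8KO 3.93%, 2.16%, 4.65% and 7.19%, with overlapping ranges. The other WT group of that age, in the Batf3KO experiment, had 0.158%, 0.182% and 0.317%, next to 0.223%, 0.215% and 0.174% in Batf3KO. The conditional experiment lay between, with 0.926%, 1.10% and 0.889% in flox and 0.957%, 0.960%, 0.841% and 0.574% in Cre. By group mean, the order from the lowest share to the highest was Batf3KO, its WT, WT at 9 months, 5xFAD, Cre, flox, 5xFAD/IRF8KO, IRF8KO at 3 months, IRF8KO at 9 months and WT at 3 months. Neighbours in this order overlapped in range, with the exception of flox and 5xFAD/IRF8KO, between which the share went from at most 1.10% to at least 2.62%.

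Exact two-sided permutation tests over libraries, adjusted over 8 comparisons, put these differences against the spread of the replicates. The largest within an experiment was IRF8KO against WT at 9 months, with 7.09% ± 0.509 against 0.245% ± 0.0437 (SD, n = 3 each), a 28.9-fold difference with exact p = 0.1, the smallest this design allows (adjusted p = 0.16). 5xFAD/IRF8KO stood at 3.43% ± 1.15, against 0.430% ± 0.156 in 5xFAD, 7.96-fold (exact p = 0.1) and without overlap. It also lay below IRF8KO without overlap, by 3.67 percentage points (exact p = 0.1). 5xFAD against WT gave a difference of 0.185 points with overlapping ranges (exact p = 0.2). At 3 months IRF8KO minus WT was -4.10 points (4.48% ± 2.09 against 8.59% ± 3.65, SD, n = 4 each, exact p = 0.0857, smallest possible 0.0286). Batf3KO minus its WT was -0.0145 points (exact p = 0.9) and Cre minus flox -0.138 points (exact p = 0.371). Without the library labelled Cre replicate 1 the latter was -0.179 points. The 2 groups of WT mice profiled at 3 months, of the same labelled strain and sex, differed by 39.3-fold (exact p = 0.0571, adjusted p = 0.16), more than the groups of the other 7 comparisons. Their sex-linked transcripts differed despite the labels. In the IRF8KO experiment 3 of the 4 WT libraries had Y-linked transcripts and none had Xist. In the Batf3KO experiment all 3 WT libraries had Xist and none had Y-linked transcripts. In none of the 8 comparisons was the adjusted p under 0.05.

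The groups with a high mitochondrial share are those with few microglia transcripts and many of other cells. The 14 libraries of WT and IRF8KO at 3 months and of IRF8KO and 5xFAD/IRF8KO at 9 months had mitochondrial shares of 2.16% to 12.9%, and microglia markers at 0.248% to 1.78% of gene counts. Among these groups WT at 3 months had the most microglia transcripts (1.10% to 1.78%) and also the highest mean mitochondrial share (8.59%). The 12 libraries with microglia markers above 4% had mitochondrial shares of 0.158% to 0.595%. With the markers of other cells taken out of the denominator, the share was 8.72%, 9.47% and 7.73% in IRF8KO and 0.228%, 0.295% and 0.213% in WT at 9 months. This step can only raise a share, since it leaves the mitochondrial RNA of those cells in the numerator. The part that RNA of other cells takes in the mitochondrial counts themselves was not tested, and fewer cells of a type and less RNA per cell cannot be told apart in such bulk samples.

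**Figure D2:**
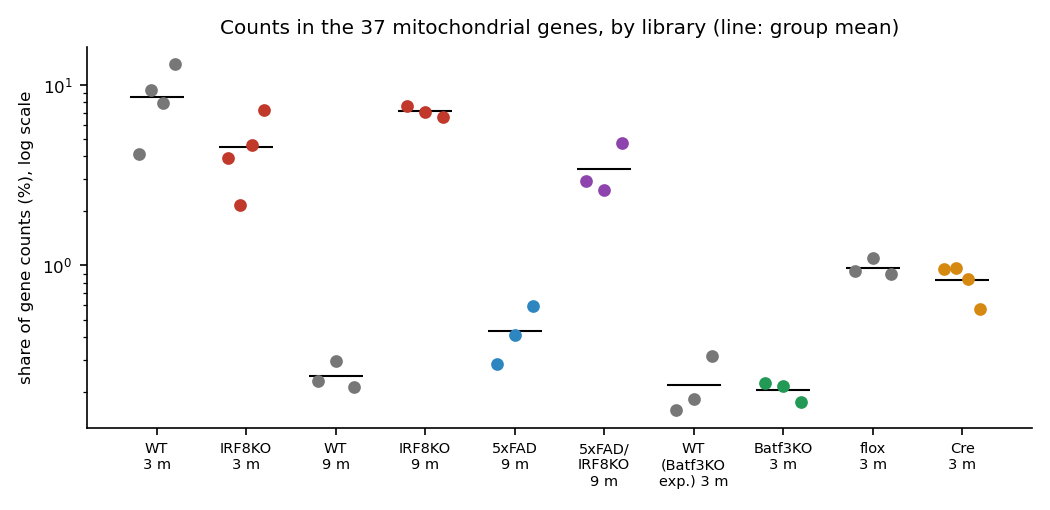
Counts of the 37 mitochondrial genes as a percent of gene counts (log axis), with a point for each of the 33 libraries and a line at each group's mean. Within the 9-month experiment both groups without Irf8 (2.62% to 7.64%) lie above both groups with it (0.213% to 0.595%), and the WT group of the Batf3KO experiment (0.158% to 0.317%) lies below WT at 3 months in the IRF8KO experiment (4.12% to 12.9%).

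The makeup of the mitochondrial counts varied less than their share. mt-Rnr1, mt-Rnr2, mt-Nd1, mt-Nd2, mt-Nd4, mt-Cytb and mt-Co1 together held 91.7% to 97.7% of them in each library. The ribosomal RNAs made up 13.2%, 12.3% and 13.4% in WT at 9 months, the lowest of any group. They made up 18.1%, 20.2% and 18.0% in IRF8KO, 16.9%, 30.9% and 23.3% in 5xFAD and 18.4%, 17.7% and 20.5% in 5xFAD/IRF8KO. The difference from WT was 5.81 points for IRF8KO and 10.7 points for 5xFAD, each with no overlap (exact permutation p = 0.1, the smallest possible; adjusted p = 0.2 over 8 comparisons). In the Batf3KO experiment the share was 15.97%, 17.7% and 18.2% in WT and 22.9%, 22.9% and 20.9% in Batf3KO, also without overlap (4.93 points, exact p = 0.1, adjusted p = 0.2). WT at 3 months had 43.5% in replicate 4, against 18.1% to 23.7% in the other 3. The check for outliers given below did not flag the ribosomal share of this library.

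Among the messenger RNAs, those of complex I were the largest part in every library of 9 months. They made up 42.8% to 48.1% of mitochondrial counts in WT and 38.9% to 44.9% in 5xFAD of that age. In IRF8KO it was 32.9% to 34.7% and in 5xFAD/IRF8KO 35.1% to 38.5%. Complex IV, measured by mt-Co1 almost alone, was 15.2% to 18.6% in that WT group and 22.3% to 24.2% in IRF8KO. It was highest in the Batf3KO experiment, at 28.6% to 31.5% in WT and 26.5% to 28.0% in Batf3KO. mt-Cytb, for complex III, made up 19.2% to 24.9% in all groups but WT at 3 months and 5xFAD, where it went down to 12.7% and 15.9%. These ranges are descriptions and were not tested.

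Ratios between genes of the same library do not depend on scaling. Per kilobase, mt-Rnr2 was 12.3 ± 2.80 times mt-Rnr1, the small ribosomal RNA, in the WT and 12.2 ± 1.46 times in the Batf3KO libraries of the Batf3KO experiment. The ratio was 6.48 ± 1.43 in WT and 6.25 ± 1.90 in 5xFAD at 9 months, and lay between 3.22 and 3.76 on average in the other 6 groups. mt-Nd1, close to the start of the main precursor, was 29.3 ± 12.5 times mt-Nd5, which lies near its end, in 5xFAD. That ratio was 17.9 ± 2.25 in WT at 3 months, 12.8 ± 1.03 in WT at 9 months, 9.78 ± 1.36 in IRF8KO at 9 months, 8.79 ± 0.517 in 5xFAD/IRF8KO and 4.16 ± 0.260 in the WT libraries of the Batf3KO experiment (all SD over the 3 or 4 libraries of a group).

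**Figure D3:**
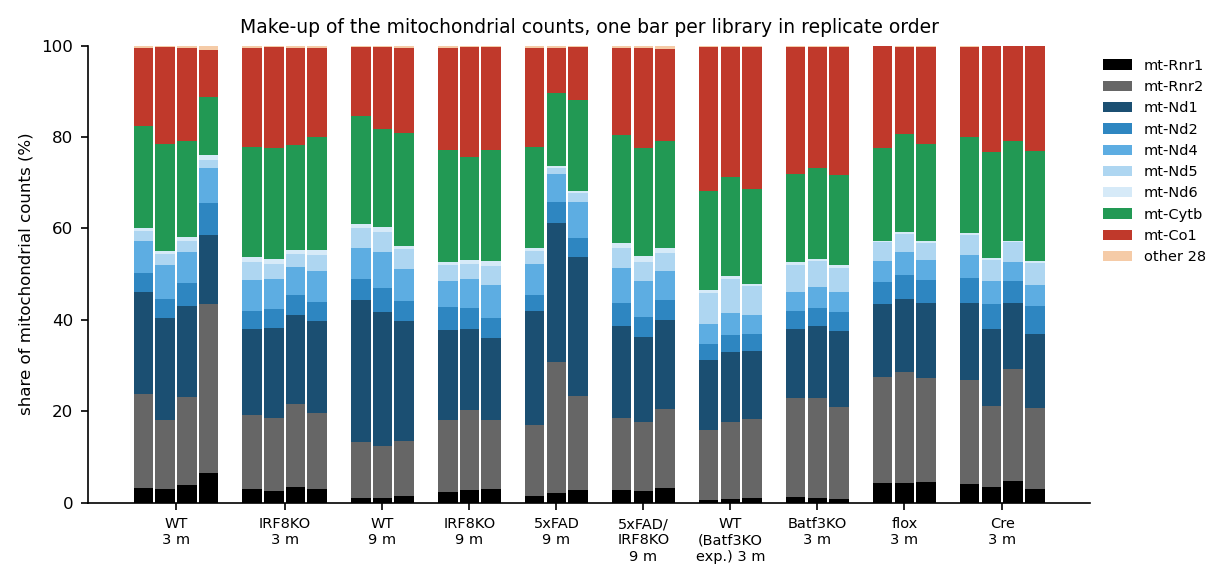
Share of the mitochondrial counts of each library that fell in mt-Rnr1, mt-Rnr2, mt-Nd1, mt-Nd2, mt-Nd4, mt-Nd5, mt-Nd6, mt-Cytb, mt-Co1 and the other 28 genes together, stacked to 100%, with libraries ordered by group. The ribosomal part is smallest in WT at 9 months (12.3% to 13.4%) and largest in replicate 4 of WT at 3 months (43.5%).

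Loss of Irf8 at 9 months went with higher levels of nearly every mitochondrial gene that could be tested. WT libraries held 278, 333 and 254 CPM of mt-Rnr2 and IRF8KO libraries 12105, 12303 and 9955 CPM. The log2 rise was 5.73 ± 0.47 (SE, n = 3 each; adjusted p = 6.82e-06, edgeR quasi-likelihood test with Benjamini-Hochberg adjustment over all genes, as in all gene tests below). For mt-Nd1 the WT values were 707, 870 and 563 CPM and the IRF8KO values 15085, 12551 and 11901 CPM, a rise of 4.62 ± 0.40 (adjusted p = 1.01e-05). For both genes every IRF8KO library lay far above every WT library.

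mt-Cytb went from 537, 634 and 529 CPM to 18679, 15811 and 16133 CPM, a log2 difference of 5.31 ± 0.36 (adjusted p = 1.92e-06). mt-Co1 went from 345, 529 and 396 CPM to 17058, 16957 and 14934 CPM, a log2 difference of 5.70 ± 0.37 (adjusted p = 1.43e-06). Per kilobase, WT at 9 months had on average 746 CPM of mt-Nd1 and 495 of mt-Cytb, whereas IRF8KO had 13771 of mt-Nd1 and 14751 of mt-Cytb, so that mt-Cytb was 0.677 ± 0.0947 and 1.07 ± 0.0523 times mt-Nd1 (SD, n = 3 each). For mt-Co1, whose level per kilobase is understated because much of its sequence has a copy, the ratio to mt-Nd1 per window found nowhere else was 0.708 ± 0.128 in WT and 1.47 ± 0.130 in IRF8KO.

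Of the 37 genes, 22 passed the filter on low counts at 9 months, and 20 of them were called higher in IRF8KO and none lower. Over all 14604 genes tested there, 28.3% were called, 19.6% higher and 8.68% lower. The median log2 difference of the 22 was 5.50, or 5.03 with the 4 genes at 0 in WT set to 3 counts. The 11 genes with counts in every library were all called higher, with a median of 5.20 and a range from 4.62 (mt-Nd1) to 6.51 (mt-Rnr1), against a median of 0.25 over all genes tested. The other 11 had to be high in some group to pass, since 10 of them had at most 3 counts over the 3 WT libraries.

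Named by the size of their fitted change were 5 transfer RNA genes. mt-Tv had 0 counts in WT and 208 in IRF8KO, at least 23.7-fold higher when WT is set to 3 counts over the group. On the same footing mt-Tf was at least 12.4-fold, mt-Tt at least 10.1-fold and mt-Ti at least 5.92-fold higher, and mt-Ta, with 1 count in WT, 116-fold (exact 95% counting interval 20.6 to 4584). The 2 tested genes that were not called were mt-Tl1, with a log2 difference of 3.85 (adjusted p = 0.0697), and mt-Nd3, with 2.09 (adjusted p = 0.195), the gene with the copy shown above.

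5xFAD with Irf8 intact differed from WT in the counts of the ribosomal RNAs. mt-Rnr2 was 435, 1188 and 1220 CPM in 5xFAD and mt-Rnr1 was 43.7, 86.9 and 164 CPM, against 254 to 333 and 21.9 to 31.4 CPM in WT. Both rose, mt-Rnr2 by 2.04 ± 0.40 (adjusted p = 0.0266) and mt-Rnr1 by 2.18 ± 0.43 (adjusted p = 0.0276) on the log2 scale. They were the 2 genes called among 22 tested, where 1.99% of all genes were called. The messenger RNAs gave smaller values that were not called: 1.15 ± 0.35 for mt-Nd1, 0.88 ± 0.30 for mt-Cytb, 0.80 ± 0.30 for mt-Co1 and 0.02 ± 0.28 for mt-Nd5 (adjusted p = 0.152, 0.22, 0.285 and 1). Whether the ribosomal RNAs differed from the messenger RNAs in this was not tested gene against gene. Both calls were lost when any WT library or replicate 2 or 3 of 5xFAD was left out, and when libraries were scaled by size alone, each of which left 0 genes called.

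Within 5xFAD, loss of Irf8 again went with higher levels. mt-Cytb was 623, 656 and 1187 CPM in 5xFAD and 6899, 6222 and 11171 CPM in 5xFAD/IRF8KO, a rise of 3.42 ± 0.33 on the log2 scale (adjusted p = 1.86e-05). mt-Co1 rose by 3.71 ± 0.33 (adjusted p = 1.18e-05), mt-Nd1 by 2.52 ± 0.37 (adjusted p = 0.000373) and mt-Rnr2 by 2.68 ± 0.41 (adjusted p = 0.000497). The largest log2 differences among the well counted genes were those of mt-Nd6, with 4.27 ± 0.31, and mt-Nd5, with 4.19 ± 0.32. mt-Nd6 is the only protein gene on the other strand, but the counts ignore strand. They cannot tell its transcripts from those of the opposite strand. Of 22 genes tested 17 were called higher, where 27.8% of all genes were called (18.0% higher and 9.72% lower), and the 11 genes counted in every library were called higher with a median of 3.53. Among the scarce transfer RNA genes, mt-Ta, mt-Tl1 and mt-Ts2 had fitted log2 differences of 5.00 ± 1.15, 4.80 ± 1.45 and 4.54 ± 1.37.

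The Irf8 effect was smaller in 5xFAD than in WT for mt-Rnr2. The interaction, the effect in 5xFAD minus that in WT, was -3.06 ± 0.55 (adjusted p = 0.0429), the 1 gene called of 22, where 0.438% of all genes were called. For mt-Nd1, mt-Cytb and mt-Co1 it was -2.09, -1.88 and -1.99 (adjusted p = 0.0821, 0.073 and 0.0644), so a difference between the effects was not called for them. The mt-Rnr2 call was lost without any WT library, without replicate 2 or 3 of 5xFAD and without replicate 1 or 2 of 5xFAD/IRF8KO, with values from -3.17 to -2.82, and held without the other 5 libraries. It was also lost with size factors of the DESeq2 type, by library size alone and with a block on replicate numbers, and held with DESeq2. The comparison of 5xFAD/IRF8KO with IRF8KO called none of the 22 genes in edgeR, where 0.164% of all genes were called (0.123% higher and 0.0411% lower). It gave 8 at an unadjusted p under 0.05, and DESeq2 called 1. The values for mt-Co1, mt-Cytb, mt-Rnr2 and mt-Nd1 ran from -1.19 to -0.95.

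At 3 months no mitochondrial gene was called in IRF8KO against WT. WT libraries held 8471, 14117, 15291 and 47945 CPM of mt-Rnr2 and IRF8KO libraries 6392, 3430, 8435 and 12007 CPM, a log2 difference of -1.67 ± 0.64 (adjusted p = 0.131). The highest WT library, replicate 4, weighed most here, and without it the difference was -0.86. For mt-Nd1 the WT values were 9223, 20902, 15820 and 19405 CPM and the IRF8KO values 7361, 4250, 9062 and 14420 CPM (-1.04 ± 0.51, adjusted p = 0.242). mt-Cytb (-0.71 ± 0.51) and mt-Co1 (-0.73 ± 0.50) had adjusted p = 0.439 and 0.412. None of the 22 genes tested was called in edgeR, 11 had an unadjusted p under 0.05 and all 22 values were negative, from -2.29 to -0.35. Without WT replicate 4, 2 had an unadjusted p under 0.05, and the median went from -1.44 to -0.73. DESeq2, which tested 30 mitochondrial genes, called 9 lower. Over all genes tested 7.39% were called, 4.15% higher and 3.24% lower.

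The Irf8 effects at the 2 ages differed from each other. This comparison, which puts both ages into a single model, was added after the data had been examined. The effect at 9 months exceeded that at 3 months by 7.48 ± 0.86 for mt-Rnr2, 6.49 ± 0.64 for mt-Co1, 6.09 ± 0.63 for mt-Cytb and 5.73 ± 0.64 for mt-Nd1 on the log2 scale (adjusted p = 1.57e-05, 6.06e-06, 7.96e-06 and 1.41e-05). All 22 genes tested were called higher, with values from 3.80 to 10.47, where 24.0% of all genes were called and 18.0% called higher. The 11 genes with counts in every library were all called higher, with a median of 6.48. The level of the WT libraries, 4.12% or more at 3 months and 0.295% or less at 9 months, enters this difference as much as that of the IRF8KO libraries. Age and the content of other cells moved together across these WT groups (neutrophil markers 0.852% to 5.38% of gene counts at 3 months, at most 0.000330% at 9 months) and cannot be told apart.

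**Figure D4:**
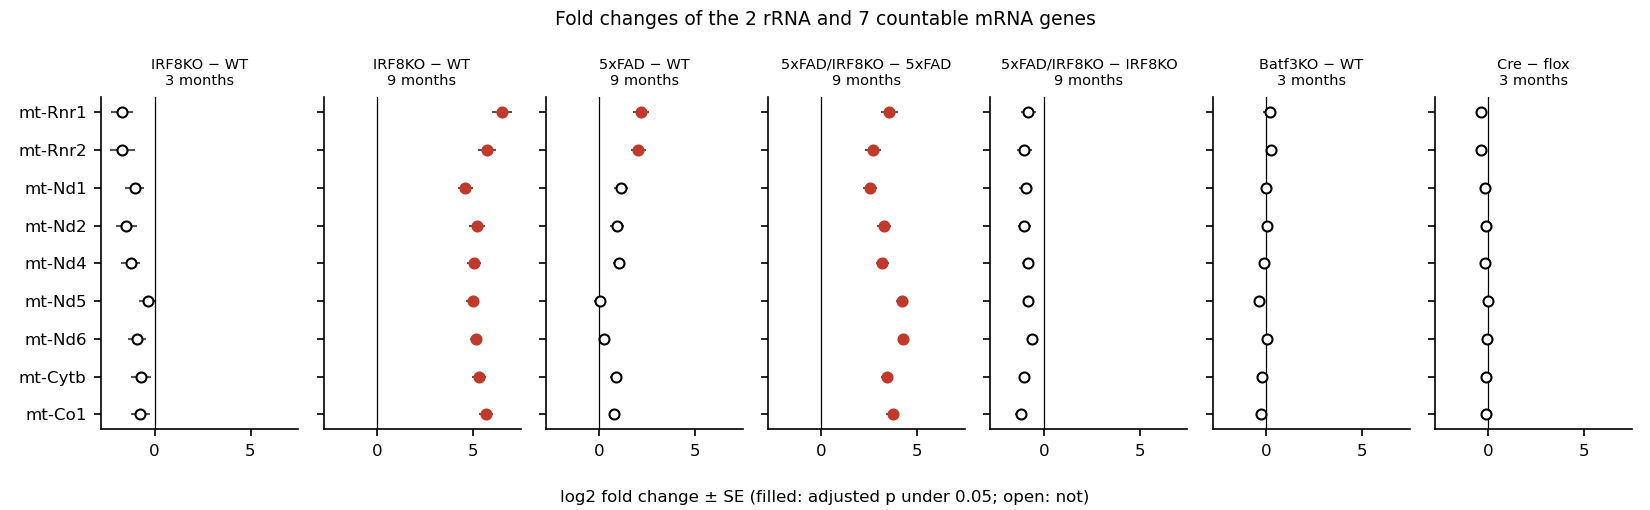
Log2 difference with its standard error for 9 well counted mitochondrial genes in 7 comparisons; filled points have an adjusted p under 0.05 in edgeR. IRF8KO against WT at 9 months (4.62 to 6.51) and 5xFAD/IRF8KO against 5xFAD are called for all 9 genes, 5xFAD against WT for mt-Rnr1 and mt-Rnr2, and the Batf3KO and Cre comparisons for none.

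Loss of Batf3 left no called difference in the mitochondrial genes. WT libraries held 242, 306 and 542 CPM of mt-Rnr2 and Batf3KO libraries 484, 467 and 349 CPM, a log2 difference of 0.26 ± 0.21 (adjusted p = 0.561). The values were -0.02 ± 0.18 for mt-Nd1, -0.21 ± 0.17 for mt-Cytb and -0.24 ± 0.19 for mt-Co1 (adjusted p = 0.966, 0.577 and 0.552). edgeR called 0 of the 12 genes tested, 0 had an unadjusted p under 0.05 and DESeq2 called 0, where 3.83% of all genes were called (1.41% higher and 2.42% lower). WT replicate 3 lay above the other libraries of that experiment in mt-Nd1 (472 CPM against 240 to 339) and mt-Co1 (986 against 488 to 622). Without it the values turned to 0.31 for mt-Nd1, 0.11 for mt-Cytb and 0.13 for mt-Co1.

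Deletion of Irf8 after birth likewise left no called mitochondrial gene. mt-Nd1 was 1464, 1738 and 1466 CPM in flox and 1614, 1611, 1202 and 926 CPM in Cre. The log2 differences were -0.38 ± 0.22 for mt-Rnr2, -0.19 ± 0.21 for mt-Nd1, -0.10 ± 0.20 for mt-Cytb and -0.14 ± 0.19 for mt-Co1, with adjusted p = 0.708 or more. edgeR called 0 of 11 mitochondrial genes (1 had an unadjusted p under 0.05, and DESeq2 called 0) and 0% of all genes, of which 1407 had an unadjusted p under 0.05. Without the library labelled Cre replicate 1, again 0 of 11 mitochondrial genes were called (2 at an unadjusted p under 0.05), while 952 of the 15264 genes tested were called, 571 higher and 381 lower.

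The 2 WT groups of 3 months differed in every mitochondrial gene tested. mt-Co1 was 7047, 19871, 16165 and 13338 CPM in the WT of the IRF8KO experiment and 496, 519 and 986 CPM in the WT of the Batf3KO experiment, a log2 difference of 4.70 ± 0.56 (adjusted p = 0.000315). It was 5.41 ± 0.56 for mt-Cytb, 5.94 ± 0.59 for mt-Nd1 and 6.22 ± 0.85 for mt-Rnr2. All 24 genes tested were called higher, where 42.8% of all genes were called (26.5% higher and 16.3% lower), with a median of 6.84, or 6.42 with genes at 0 set to 3 counts. Of these, 10 had at most 3 counts over the WT libraries of the Batf3KO experiment. Those 10 had to be high in the other group to pass the filter. The 11 genes with counts in every library were all called higher, with a median of 6.22 and values down to 3.89 (mt-Nd5). By the fitted change the leading genes were mt-Tv, with 0 counts against 947 and at least 373-fold higher, mt-Tt, at least 97.0-fold, mt-Ts2, at least 67.0-fold, mt-Tf, 519-fold (95% counting interval 92.7 to 20550), and mt-Ta, with a log2 difference of 8.46 ± 0.96. The experiment, the content of other cells, the sex shown by Y-linked and Xist transcripts and any other difference between these libraries cannot be told apart.

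Reads on mt-Nd3 and on its copy Gm28438 showed a pattern of their own. In the WT and 5xFAD libraries of the germline experiments and in the Batf3KO experiment the reads fell on mt-Nd3. WT at 3 months had 71, 658, 642 and 621 counts of mt-Nd3 and 3, 11, 4 and 18 of Gm28438. WT at 9 months had 10, 6 and 0 counts of mt-Nd3, 5xFAD 12, 13 and 13, and both had none of Gm28438. With so few reads, the zeros allow the copy up to 30% and 50% of the pair in WT replicates 1 and 2. In 5xFAD they allow it up to 23.1% to 25%, and WT replicate 3 had no read on either gene. The 6 libraries of the Batf3KO experiment had 18 to 35 counts of mt-Nd3 and at most 1 of Gm28438.

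In the conditional experiment the reads fell on the copy. The 3 flox libraries had 217, 316 and 221 counts of Gm28438, the 4 Cre libraries 270, 301, 236 and 205, and none of the 7 had a count of mt-Nd3, which allows it a share of up to 0.949% to 1.46% of the reads on the pair. IRF8KO at 9 months was mixed, with 49, 20 and 86 counts of mt-Nd3 and 344, 270 and 56 of Gm28438, so that the copy held 87.5%, 93.1% and 39.4% of the pair. 5xFAD/IRF8KO had 7.69%, 1.64% and 18.0% on the copy. IRF8KO at 3 months had 60, 49, 301 and 186 counts of mt-Nd3 and 2, 1, 0 and 0 of Gm28438.

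The neighbouring copies gave other values. Gm28437, the copy of mt-Co3, had 144 counts in the 7 libraries of the conditional experiment and 280 in the other 26, and Gm29216, the copy of mt-Co1, 17 and 121, while Gm28438 had 1766 and 740. The counts of mt-Nd3 and Gm28438 are not on 1 scale, because on chromosome M reads over position 9461 mostly also touch mt-Tg, which ends at 9458, and are then left uncounted, whereas no gene is annotated there on chromosome 1. Which base the mice of each group carry at that position was not tested, since the deposited tables hold no sequence. The low value of mt-Nd3 in IRF8KO at 9 months, the 2 genes' pattern and the genotype comparison cannot be told apart.

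**Figure D5:**
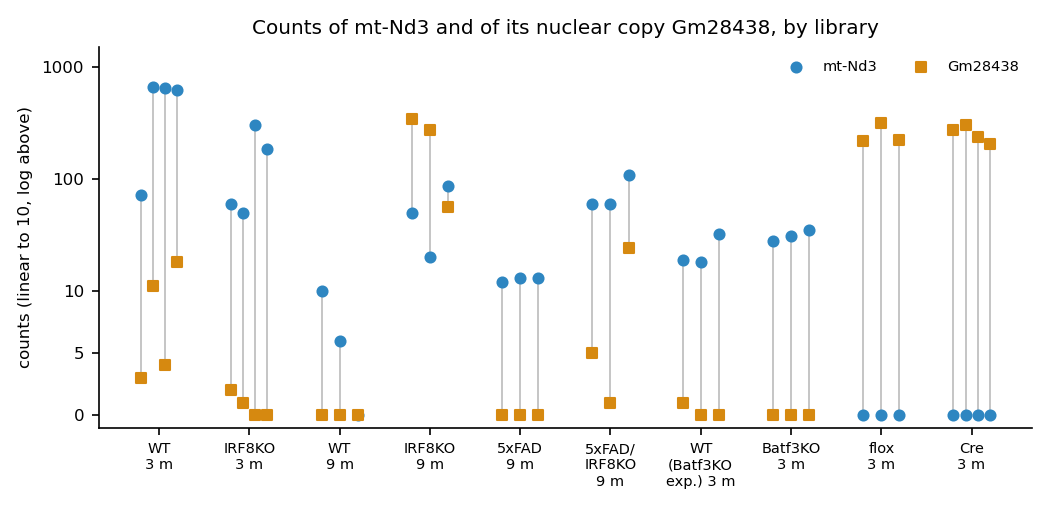
Counts of mt-Nd3 (circles) and of its copy Gm28438 (squares) in each of the 33 libraries by group, with a line joining the points of a library and an axis that is linear up to 10 and logarithmic above. The 7 libraries of the conditional experiment have 0 counts of mt-Nd3 and 205 to 316 of Gm28438, the 3 IRF8KO libraries of 9 months have both, and the WT, 5xFAD and Batf3KO libraries have at most 18 of Gm28438.

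The nuclear partners of these genes were followed in fixed lists. At 9 months in IRF8KO the nuclear subunits of the respiratory chain were also mostly called higher. Of complex I 29 of 36 were called higher and none lower (median log2 difference 1.95), with Ndufc1 at 3.10 ± 0.33 and Ndufa1 at 2.88 ± 0.31. Of complex III 6 of 9 were higher (median 2.10; Uqcrh 2.82 ± 0.38), of complex IV 11 of 11 (median 2.71; Cox6c 3.48 ± 0.34 and Cox8a 3.21 ± 0.27) and of complex V 13 of 15 (median 2.25; Atp5k 3.15 ± 0.42). The median over all genes tested was 0.25, and 19.6% of genes were called higher.

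In the lists for making and handling mitochondrial RNA, counts stand beside a background of 19.6% of all genes called higher and 8.68% lower. Of 10 genes for mitochondrial transcription none was higher and 1 lower, the RNA polymerase gene Polrmt, which fell by 6.48 ± 1.87 on the log2 scale (adjusted p = 0.0218) and had counts in 1 of the 3 IRF8KO libraries. Polrmt had 0, 313 and 313 counts in 5xFAD/IRF8KO and 109, 103, 600 and 116 in IRF8KO at 3 months. Of 29 genes for mitochondrial RNA processing and decay none was higher and 4 lower, among them Lrpprc, which stabilises mitochondrial messenger RNA (-2.64 ± 0.88), and the helicase gene Supv3l1 (-4.94 ± 1.59). Of 12 genes for mitochondrial DNA replication 2 were lower, the helicase gene Twnk (-5.59 ± 1.73) and Primpol, a primase and polymerase gene with 0 counts in all 3 IRF8KO libraries. In 5xFAD/IRF8KO Primpol had 487, 162 and 0 counts. Of 7 tested regulators of mitochondrial biogenesis 1 was higher, the coactivator gene Ppargc1a, with 0 counts in all 3 WT libraries and 574, 78 and 138 in IRF8KO. Of 18 genes that stand for mitochondrial mass 4 were higher, led by Slc25a4 (2.68 ± 0.32), an ADP/ATP carrier, and Vdac1 (1.20 ± 0.21), a channel of the outer membrane. Of 10 mitophagy genes 4 were higher, with Optn at 3.92 ± 0.93 and Bnip3l, which clears mitochondria in maturing red blood cells, at 2.79 ± 0.50. In the same comparison all 8 microglia markers were called lower and all 10 neutrophil and 7 red blood cell markers higher. Markers of brain cells were called higher too, 8 of 8 for neurons, 7 of 8 for oligodendrocytes and 6 of 6 for astrocytes. Their part in these values was not tested.

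In 5xFAD against WT nuclear subunits of all 4 complexes were among the called genes. Higher were 18 of 36 of complex I (median 1.38; Ndufa1 2.06 ± 0.30), 5 of 9 of complex III (Uqcr11 1.87 ± 0.30), 8 of 11 of complex IV (Cox8a 1.75 ± 0.26) and 5 of 15 of complex V (Atp5e 1.91 ± 0.35), where 1.81% of all genes were called higher. These 36 calls among the 71 subunits depended on single libraries: they were 0 without any of the 3 WT libraries and 0 without 5xFAD replicate 2 or 3. By library size alone they were 0 as well. Over all genes the 290 calls became 3, 6 and 3 without WT replicate 1, 2 or 3, and 2 and 4 without 5xFAD replicate 2 or 3. Here the neutrophil, red blood cell and oligodendrocyte markers stayed without a call, and their neutrophil and red blood cell sums were at most 0.00529% of gene counts in both groups. Of 12 genes of the response to tissue dissociation 5 were lower in 5xFAD, led by the heat shock genes Hspa1b (-6.90 ± 1.13) and Hspa1a (-6.60 ± 1.12), and their part was not tested.

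In 5xFAD/IRF8KO against 5xFAD some nuclear subunits were called as well. Called higher were 5 of 36 of complex I (1 lower; median 0.37), 0 of 9 of complex III, 6 of 11 of complex IV (median 0.86; Cox6c 1.46 ± 0.31) and 5 of 15 of complex V (median 0.79; Atp5k 1.45 ± 0.39), beside a median of 3.53 for the 11 mitochondrial genes counted in every library and a background of 18.0% called higher and 9.72% lower. Leaving out 1 library gave 1 to 17 of the 71 subunits called higher. Of 7 biogenesis regulators 2 were higher, Ppargc1a, with 1 count over the 3 5xFAD libraries and 179, 60 and 99 in 5xFAD/IRF8KO, and Gabpa, which encodes a subunit of a nuclear respiratory factor (1.93 ± 0.59). At 3 months in IRF8KO, where no mitochondrial gene was called, nuclear subunits fell: 18 of 36 of complex I (median -1.17; Ndufa11 -1.84 ± 0.39), 4 of 9 of complex III (Uqcr11 -1.79 ± 0.38), 5 of 11 of complex IV (Ndufa4 -1.58 ± 0.37) and 5 of 15 of complex V (Atp5g1 -1.86 ± 0.40), with none higher and a background of 3.24% called lower. These 32 calls became 0, 5, 2 and 3 without IRF8KO replicate 1, 2, 3 or 4, and 24 to 34 without a WT library. In that comparison 4 of 8 microglia markers and 3 of 8 neuron markers were lower, 4 of 10 neutrophil and 2 of 6 border macrophage markers were higher, and their part was not tested. Of 8 biogenesis regulators 1 was higher, Gabpa (1.96 ± 0.45), where 4.15% of all genes were called higher. Batf3KO gave 2 called higher in complex I and 1 in complex IV, where 1.41% of all genes were called higher, and Cre against flox none in any of these lists.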

How the data were processed

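RNA was sequenced from sorted microglia, isolated without enzymes and amplified with the SMART-Seq v4 and Nextera XT kits, per the labels' protocols. The kits carry no molecular identifiers, so counts, intervals and floors cover counting error only. The authors deposited 1 table of raw read counts per gene and library, without normalization. Its layout is that of STAR's gene counts. STAR 2.5.2b, Picard 2.17.11, Subread with featureCounts, bcl2fastq and the mm10 build are named in the submitters' processing notes, without their roles, and no annotation release was stated in any source at hand. The column that ignores strand was used, so overlapping and antisense genes cannot be told apart. The 4 summary lines of unassigned reads stayed out of library sizes and tests; counts in genes were 47.3% to 78.6% of reads. Of 54146 gene identifiers 52480 had the same version in GENCODE M21 (GRCm38), which gave symbols, coordinates and transcript sequences.

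CPM are counts scaled to a common total of gene counts without further scaling. Genes were tested with edgeR 4.0.16 in R 4.3.3 (default filter on low counts, TMM scaling, quasi-likelihood test, Benjamini-Hochberg adjustment over all genes, calls at an adjusted p under 0.05). The 12 libraries of 9 months shared a model and other comparisons used their own groups. Shares were compared with exact two-sided permutation tests (Python 3.11.15, scipy 1.17.1). Alternatives were other scalings, no filter, DESeq2 1.42.0, a model of all 33 libraries, a replicate block and leaving out each library. In simulated data, 100 genes changed 4-fold were recovered at 36% for IRF8KO at 3 months (13121 genes), 19% for IRF8KO at 9 months (14604 genes), 90% for Batf3KO (13128 genes), 87% for Cre (15512 genes) and 31% for the 2 WT groups (14621 genes). Recovery at 32-fold was 86%, 68%, 99%, 100% and 85% in the same order.

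In every comparison mt-Rnr2, mt-Nd1, mt-Cytb, mt-Co1 and mt-Atp6 were named, with up to 5 other called mitochondrial genes and up to 3 called genes of each nuclear list by size of change; mt-Atp6 was never testable. The members and lists were chosen with earlier results of these data known.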

Additional observations from a re-analysis of the deposited data

Results flagged for a closer look

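Of 54 checks for a library far from the others of its group of 4, 2 stood out, where chance gives about 1 in 20. Genes of complex I made up 28.02% of the mitochondrial counts in Cre replicate 3, against 32.1% to 32.3% in the other 3 Cre libraries. The transfer RNA gene mt-Tq stood at 543 CPM in WT replicate 4 at 3 months, against 97.6 to 135 CPM in the other 3, and the same library had the highest ribosomal RNA share.

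Differences between effects that passed a test were the interaction of 5xFAD with IRF8KO for mt-Rnr2 at 9 months, -3.06 on the log2 scale, and the difference between the IRF8KO effects at 9 and 3 months, in which 22 of 22 tested mitochondrial genes were called in edgeR.

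Counts on Gm28438, the chromosome 1 copy of mt-Nd3, lie outside the 37 genes. They were 344, 270 and 56 in IRF8KO replicates 1 to 3 at 9 months, whereas WT of that age had 0 in all 3 libraries. These WT libraries had only 10, 6 and 0 counts of mt-Nd3. Their zeros allow the copy up to 30% and 50% of the pair in replicates 1 and 2 and set no limit in replicate 3.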

How the results depend on the processing

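The 20 genes called higher in IRF8KO at 9 months were 14 to 24 over all settings tried, the 17 in 5xFAD/IRF8KO against 5xFAD were 12 to 23, the 24 between the WT groups 22 to 27, and the 22 of the added comparison of ages 17 to 24. Leaving out 1 library gave 14 to 20, 12 to 19, 22 to 24 and 17 to 22 for these. The count of 0 in IRF8KO at 3 months became 1 with size factors of the DESeq2 type, 1 when scaled without the mitochondrial genes, 7 without a filter, 9 with DESeq2 and 7 with all 33 libraries in a single model, all lower, and stayed 0 to 0 without any 1 library. The count of 2 in 5xFAD became 1 with size factors of the DESeq2 type and 0 by library size alone (0 to 2 without 1 library). The interaction's 1 became 0 with either of those scalings and 7 without a filter, with DESeq2 and with all libraries (0 to 4 without 1 library). 5xFAD/IRF8KO against IRF8KO became 3 without a filter, 1 with DESeq2 and 1 with all libraries. Batf3KO became 2 without a filter (0 to 1 without 1 library). Why these counts moved was not examined, and the cause was not tested.

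Library size alone shifted the median of all genes by -0.57 to 0.24 on the log2 scale. The block on replicate numbers gave 2 genes in IRF8KO at 3 months, 1 in 5xFAD and 0 for the interaction, and turned mt-Nd1 in Batf3KO to 0.031. Correlations of same-numbered libraries ran from -0.153 to 0.167, and in no model were all pairs over 0.1. Their mean was 0.092 in IRF8KO and WT at 3 months, against -0.030 for libraries of unlike number. It was 0.086 against -0.029 in flox and Cre, -0.096 against 0.048 in the Batf3KO experiment and 0.002 against -0.001 at 9 months. Between the WT groups of 3 months it was -0.009 against 0.003. So few pairs cannot settle whether the numbers pair libraries.

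Without 1 library the difference in mitochondrial share was -5.59 to -2.65 points in IRF8KO at 3 months, 6.58 to 7.08 at 9 months, 0.103 to 0.259 in 5xFAD, and -0.0450 to 0.0345 in Batf3KO, where it reversed without WT replicate 3 (0.0345) and Batf3KO replicate 3 (0.000349). The difference in ribosomal share was -10.4 to -1.94 points in IRF8KO at 3 months, where it passed an unadjusted p of 0.05 without WT replicate 2. For 5xFAD/IRF8KO against IRF8KO it was -0.720 to 0.811, and it reversed without IRF8KO replicate 1 (-0.242) or 3 (-0.261) or 5xFAD/IRF8KO replicate 3 (-0.720). In Batf3KO without 1 library mt-Nd1 ran from -0.195 to 0.307, mt-Cytb from -0.375 to 0.107 and mt-Co1 from -0.405 to 0.128, each reversed without WT replicate 3 and mt-Nd1 also without Batf3KO replicate 3 (0.0325). mt-Cytb in Cre ran from -0.221 to 0.0722, reversed without flox replicate 2. Across named genes and other settings 389 values kept direction and call, 22 gained the call, 15 lost it and 1 reversed. For the nuclear subunits of complexes I, III, IV and V, settings chosen after seeing the data gave 55 to 60 called higher of 71 in IRF8KO at 9 months without 1 library, 0 to 40 in 5xFAD, and 0 to 34 lower in IRF8KO at 3 months. Depth limits the scarce genes: 10 of 22 tested genes had at most 3 counts over the 3 WT libraries of 9 months.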
